A study of Homo sapiens with 6 samples.

Results

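The genes described here carry the names of RGS proteins and of the subunits of heterotrimeric G proteins. They were taken by symbol from a table of 35974 genes, which gave 57 entries: 21 RGS, 18 Gα, 5 Gβ and 13 Gγ. A further RGS gene lies outside the rule and is not reported here. The 57 include 3 pseudogenes (GNAI2P1, GNAI2P2 and GNAQP1) and 2 overlapping gene IDs that both carry the name RGS5, so that they hold 56 names. The RGS5 entry ENSG00000232995 is annotated as a long noncoding RNA and is counted among the RGS entries. RNA was sequenced from SU-DHL-8, a human line of diffuse large B-cell lymphoma with the genotype label DNMT1 wild type, after treatment with GSK3685032 (3 libraries) or with DMSO (3 libraries). GSK3685032 is an inhibitor of DNMT1, which maintains methylation of DNA after replication, and DMSO is the solvent control. For inhibitor replicates 2 and 3 the treatment is written GSK3685033 and GSK3685034, while the series' design names GSK3685032 alone, and all 3 were kept as 1 group. Neither dose nor duration is stated in the sources used here. All 6 libraries come from 1 cell line, and nothing states that they were grown as separate cultures, so the p-values cover the spread among the libraries only, and that spread may be technical.

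A heterotrimeric G protein passes a signal from a receptor in the membrane to enzymes inside the cell. The receptor makes the α subunit exchange GDP for GTP, upon which α and the βγ dimer act on their effectors, and RGS proteins end the signal by speeding up the hydrolysis of GTP by α. The Gαs class stimulates adenylyl cyclase, the Gαi class inhibits it, the Gαq class activates phospholipase C-β, and the Gα12 class acts on the cytoskeleton and cell migration. In germinal centre B cells, Gα13 acts below the receptors S1PR2 and P2RY8 to hold cells in the follicle, its gene is recurrently mutated in lymphomas of this origin, and RGS1 dampens the response to chemokines.

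The total estimated count lay between 53846028 and 56795603 per inhibitor library and between 57451935 and 75304441 per DMSO library, at about 4 counts per read pair. Of 8 B-cell markers, 7 were at 1 FPKM or more in every library (all but CR2), and their summed level was 803 to 869 FPKM with the inhibitor and 870 to 886 FPKM with DMSO. The summed level of T-cell markers was at most 0.342 FPKM, that of myeloid markers at most 0.912 FPKM and that of stromal, endothelial and epithelial markers at most 1.19 FPKM in any library. The last of these was 0.916 to 1.19 FPKM with the inhibitor and 0.0988 to 0.132 FPKM with DMSO.

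G protein signalling genes moved in both directions. RGS16 had the largest rise among members at 1 FPKM or more in both groups, and the Gγ genes GNG7 and GNG12 and the Gα gene GNA15 were expressed with the inhibitor but nearly or wholly silent with DMSO. The Gαi class gene GNAZ, 4 of the 5 Gβ genes and the RGS genes RGS1, RGS2 and RGS3 were lower with the inhibitor. Of these Gβ calls, that of GNB3 was lost in 9 of 15 alternatives. Of the 57 entries, 45 had enough counts to be tested, and edgeR's quasi-likelihood test called 18 higher and 16 lower (adjusted p of 0.05). Over all 20783 tested genes, 38.1% were higher and 27.3% lower (65.4% in either direction), so the members' shares, 40% and 35.6%, lay near the background. Their median log2 change was 0.09, against 0.14 over all tested genes. The groups did not overlap in 36 of the 45, where 71.7% of all tested genes had no overlap. In bulk RNA a smaller number of cells that express a gene and less RNA per cell cannot be told apart.

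The 18 higher members fall into 3 kinds. With DMSO, 6 had no count at all, 3 had 1 to 12 counts over the 3 libraries (at most 3 read pairs), and 9 had more. The 9 genes with at most 12 DMSO counts could pass the filter on low counts only through their inhibitor libraries, so their calls as higher were nearly fixed by the filter. They are given below by their levels and bounds, with no p. GNA15 (0, 8 and 17 DMSO counts) and RGS12 (9, 11 and 7) also passed the filter only through their inhibitor libraries. Their calls as higher were nearly fixed as well, and they are given with no p. Among the 36 tested members with over 12 DMSO counts, 9 were higher and 16 lower. Of all 20783 tested genes, 2600 had at most 12 DMSO counts, and 5340 of the others were higher. The lower genes numbered 5672 over all tested genes. The 12 members that were not tested were GNA14, GNAQ, GNAT1, GNG8, GNG14, RGS7, RGS18, RGS21, RGS22 and the 3 pseudogenes, and none of these exceeded 0.426 FPKM in any library. Of these, RGS7, GNAT1, GNG8, GNAQP1 and GNAQ had no DMSO count, and RGS7 had 28, GNAT1 34, GNG8 5 and GNAQP1 6 counts over the inhibitor libraries, while RGS21 and GNAI2P2 had no inhibitor count and 4 and 8 counts over the DMSO libraries. At the other end, 28 members reached a mean of 1 FPKM in a group, of which 8 were higher and 13 lower. Among all tested genes at that level, 34.1% were higher and 39.7% lower.

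**Figure D1:**
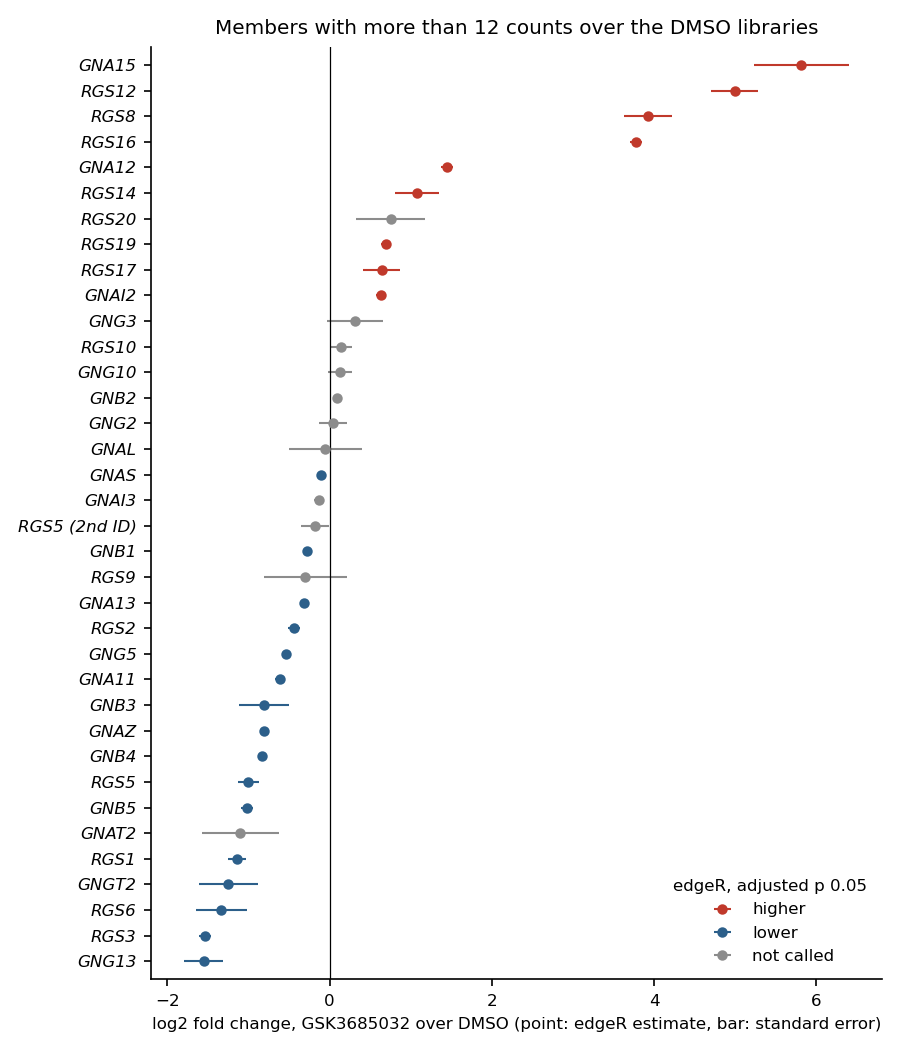
Log2 fold change of GSK3685032 over DMSO for the 36 tested members with more than 12 counts over the DMSO libraries (point, edgeR estimate; bar, standard error; red, called higher; blue, called lower; grey, not called). The estimates run between -1.55 for GNG13 and 5.81 for GNA15. GNA15 and RGS12 passed the filter on low counts only through their inhibitor libraries.

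CG dinucleotides, the sites that DNMT1 methylates, were counted at the starts of these genes. RefSeq windows (GRCh38.p14, 250 bases before to 50 after a start) were available for 45 of 53 gene names looked up, and for genes with several starts the window nearest the deposited gene start was taken. GNA15, GNAQ, GNAZ, GNB3, GNGT2, RGS11, RGS20 and RGS22 had none. A window held a median of 25 CG, against 14 over all 35116 windows, and 60% of the members' windows held at least 20 CG, against 41.2% of all windows. Each member gave 1 window, while the 35116 include all listed starts of genes with several. The sets are therefore unlike, and the difference was not tested. Windows of higher members with at most 12 DMSO counts held 2 to 48 CG (median 29, n = 8), those of the other higher members 4 to 46 (median 33.5, n = 8), those of lower members 1 to 48 (median 28, n = 13) and those of members not called 1 to 35 (median 25, n = 9). Windows of members that were not tested held 1 to 46 CG (median 5, n = 7). The ends depend on the window taken: RGS3 has windows with 1 to 33 CG and GNAI2 with 4 to 29. CG-rich and CG-poor starts were found among both higher and lower genes. For GNAI1, GNGT1 and RGS9 the nearest window lay over 30 kb from the deposited start (366803, 314994 and 36558 bases). Methylation itself was not measured in these files.

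**Figure D2:**
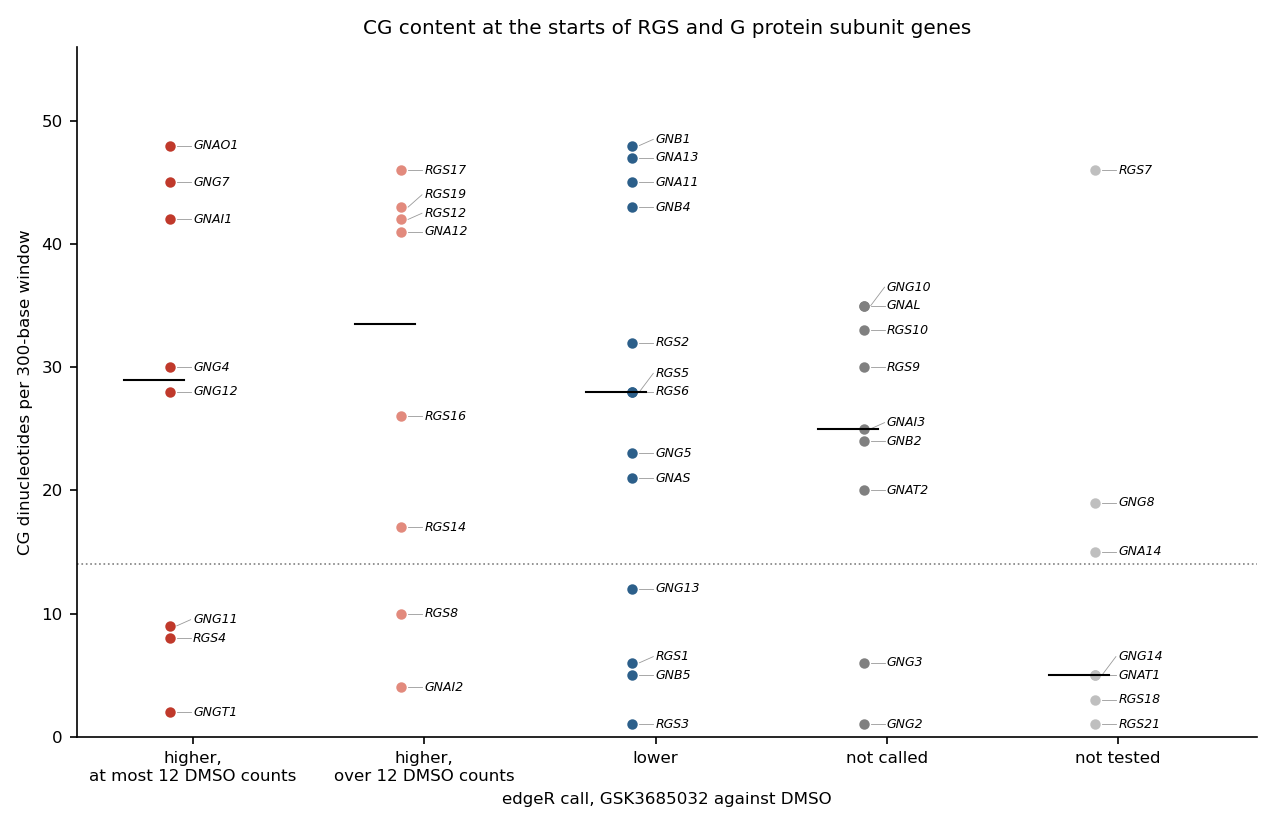
CG dinucleotides per 300-base window at the gene start, by edgeR call (point, 1 gene; bar, median of the group; dotted line, the median of 14 over all RefSeq windows). GNG7 (45), GNG12 (28) and GNG11 (9) stand in the group that was nearly or wholly silent with DMSO, and GNB1 (48) and RGS3 (1) are the ends of the group that was lower.

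6 of these windows are shown because they belong to the genes that the results turn on and have a single RefSeq start: 3 Gγ genes that were nearly or wholly silent with DMSO, RGS16, and 2 RGS genes that were lower with the inhibitor. Every CG is in capitals, read 5′ to 3′ on the strand of the gene. The motif CG reads the same on both strands. The windows of GNG7, GNG12 and RGS16 hold 45, 28 and 26 CG, and 3.48%, 26.2% and 30.1% of all windows hold at least as many. RGS2 has 32 (18.9% of windows), while GNG11 and RGS1 hold 9 and 6 (58.4% and 66.3%).
GNG7, chr19:2702645-2702944, minus strand: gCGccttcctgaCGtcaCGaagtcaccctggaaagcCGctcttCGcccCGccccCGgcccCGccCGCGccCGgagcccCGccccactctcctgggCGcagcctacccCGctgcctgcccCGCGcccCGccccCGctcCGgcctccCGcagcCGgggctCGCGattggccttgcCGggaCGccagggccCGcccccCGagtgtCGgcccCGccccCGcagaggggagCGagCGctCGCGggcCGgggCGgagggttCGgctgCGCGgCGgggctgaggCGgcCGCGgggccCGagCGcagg
GNG12, chr1:67833418-67833717, minus strand: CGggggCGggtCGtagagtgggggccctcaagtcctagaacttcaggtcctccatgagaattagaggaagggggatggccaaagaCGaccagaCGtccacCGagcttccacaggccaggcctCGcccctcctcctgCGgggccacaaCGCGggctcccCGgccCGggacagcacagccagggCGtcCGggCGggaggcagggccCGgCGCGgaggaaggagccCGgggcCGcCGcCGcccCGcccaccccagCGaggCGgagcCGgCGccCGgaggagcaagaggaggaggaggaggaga
GNG11, chr7:93921485-93921784, plus strand: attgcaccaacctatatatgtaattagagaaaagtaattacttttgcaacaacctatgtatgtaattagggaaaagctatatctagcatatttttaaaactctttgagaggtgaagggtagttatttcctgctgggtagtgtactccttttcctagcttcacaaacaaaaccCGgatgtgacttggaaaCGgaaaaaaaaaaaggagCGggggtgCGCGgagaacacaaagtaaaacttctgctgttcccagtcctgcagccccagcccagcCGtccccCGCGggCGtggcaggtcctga
RGS16, chr1:182604340-182604639, minus strand: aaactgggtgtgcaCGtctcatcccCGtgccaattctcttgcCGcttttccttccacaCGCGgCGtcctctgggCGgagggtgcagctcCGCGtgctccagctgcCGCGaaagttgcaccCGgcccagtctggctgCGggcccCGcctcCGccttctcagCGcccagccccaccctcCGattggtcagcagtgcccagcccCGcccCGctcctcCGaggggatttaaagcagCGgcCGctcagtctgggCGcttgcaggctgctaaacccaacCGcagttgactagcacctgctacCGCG
RGS2, chr1:192808789-192809088, plus strand: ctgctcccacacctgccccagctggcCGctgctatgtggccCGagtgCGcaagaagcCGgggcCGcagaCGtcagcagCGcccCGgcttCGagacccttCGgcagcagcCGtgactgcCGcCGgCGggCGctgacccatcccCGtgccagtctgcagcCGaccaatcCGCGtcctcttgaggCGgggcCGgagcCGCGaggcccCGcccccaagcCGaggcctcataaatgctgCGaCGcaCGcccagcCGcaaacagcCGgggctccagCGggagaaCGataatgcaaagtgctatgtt
RGS1, chr1:192575523-192575822, plus strand: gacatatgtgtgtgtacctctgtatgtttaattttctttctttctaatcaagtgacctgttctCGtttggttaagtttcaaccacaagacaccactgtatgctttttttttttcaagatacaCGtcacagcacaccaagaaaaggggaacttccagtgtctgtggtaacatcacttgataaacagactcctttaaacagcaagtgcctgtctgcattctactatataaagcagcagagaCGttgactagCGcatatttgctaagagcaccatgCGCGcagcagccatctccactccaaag

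RGS genes were higher in 8 and lower in 5 of 17 tested (47.1% and 29.4%, against 38.1% and 27.3% of all tested genes), with a median log2 change of 0.64. With genes at 1 FPKM or more only, 2 of 8 were higher, where 4826 of all 12395 genes were. By limma 5 of 14 were higher, and the share of all genes by limma is not given here. The rise of RGS16 stood out. RGS16 (ENSG00000143333, chromosome 1, 182598623 to 182604389) encodes a small RGS protein of the R4 subfamily that acts on Gαi and Gαq. It was measured at 74.6, 71.2 and 74.6 FPKM in the inhibitor libraries, against 5.13, 5.90 and 4.93 FPKM in the DMSO libraries. Every inhibitor library lay far above every DMSO library, a 13.7-fold rise (log2 change 3.78, SE 0.07, edgeR adjusted p = 2.72e-09). RGS8 (chromosome 1, 182641816 to 182684587), another R4 member best known from neurons, lies on the same strand with a gap of 37.4 kb between its span and that of RGS16. It had 1.19, 0.812 and 1.11 FPKM with the inhibitor, against 0.0684, 0.0435 and 0.0888 FPKM with DMSO. Its groups were well apart as well, 15.2-fold (log2 change 3.93, SE 0.30, edgeR adjusted p = 2.33e-06), at a level far below that of RGS16.

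Other R4 genes that B cells express were lower. RGS1 (chromosome 1, 192575763 to 192580024), the RGS protein known for damping chemokine receptor signals in B cells, fell to 2.76, 3.72 and 3.03 FPKM in the inhibitor libraries, against 6.40, 7.32 and 7.12 FPKM in the DMSO libraries (log2 change -1.14, SE 0.11, edgeR adjusted p = 1.29e-05). RGS2 (chromosome 1, 192809039 to 192812275), which prefers Gαq, was at 25.5, 21.1 and 23.8 FPKM, against 30.6, 31.8 and 32.5 FPKM with DMSO (log2 change -0.44, SE 0.08, edgeR adjusted p = 0.000586), and its log2 change was -0.27 under upper-quartile scaling. The fall was smaller than that of RGS1, and the groups of neither gene overlapped. RGS3, a regulator of Gαi and Gαq, fell to 0.768 ± 0.00948 FPKM with the inhibitor, against 2.23 ± 0.0329 FPKM with DMSO (SD, n = 3 each; log2 change -1.53, SE 0.07, edgeR adjusted p = 1.27e-07).

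RGS5, best known from the pericytes of blood vessels, has 2 entries that overlap on the same strand of chromosome 1, so that reads may be shared between them. The entry ENSG00000143248 fell to 0.9535, 0.822 and 0.990 FPKM, against 1.83, 1.89 and 1.79 FPKM with DMSO (log2 change -0.999, SE 0.13, edgeR adjusted p = 7.58e-05). The entry ENSG00000232995 measured 1.27 ± 0.127 FPKM with the inhibitor and 1.44 ± 0.198 FPKM with DMSO and was not called (95% interval of the log2 change -0.57 to 0.20). Both also overlap the kinetochore gene NUF2 on the other strand, which was at 8.17 FPKM with the inhibitor and 23.3 FPKM with DMSO (log2 change -1.52, edgeR adjusted p = 8.90e-07). The sources used here do not state whether counting used strand, and the part of NUF2 in the RGS5 values was not tested. RGS4, a neuronal member, had no DMSO count and reached 0.0440, 0.107 and 0.0724 FPKM with the inhibitor, at least 6.42-fold higher. RGS18, known from platelets, and RGS21, known from taste cells, were not tested and had at most 0.118 FPKM.

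The RZ subfamily acts mainly on Gαz and Gαi. Its member RGS19 (chromosome 20, 64073181 to 64079988), first found as a partner of Gαi3, was the most abundant RGS gene here in both groups. It rose to 113, 117 and 105 FPKM with the inhibitor, against 69.0, 63.4 and 72.8 FPKM with DMSO, without overlap (log2 change 0.70, SE 0.06, edgeR adjusted p = 7.54e-06). The microRNA gene MIR6813, which overlaps RGS19 on the same strand, was listed at 32.6 FPKM with the inhibitor and 7.15 FPKM with DMSO, and its part in the RGS19 value was not tested. RGS17 was at 0.420, 0.367 and 0.394 FPKM, against 0.311, 0.244 and 0.200 FPKM, and was called higher (log2 change 0.64, SE 0.22, edgeR adjusted p = 0.0299). That call was lost in 8 of 15 alternatives, among them without DMSO replicate 2 (edgeR adjusted p = 0.0674) or 3 (0.0904) and without inhibitor replicate 1 (0.0915) or 3 (0.0686), with log2 changes of 0.50 to 0.65. RGS20 measured 0.244 ± 0.0480 FPKM with the inhibitor and 0.144 ± 0.0709 FPKM with DMSO and was not called (95% interval of the log2 change -0.20 to 1.71).

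In the R12 subfamily, RGS10, an RGS protein of immune cells, measured 7.95, 6.38 and 8.39 FPKM with the inhibitor and 6.80, 6.81 and 6.86 FPKM with DMSO. The groups overlapped, and RGS10 was not called (95% interval of the log2 change -0.16 to 0.45). RGS12 and RGS14, larger proteins that also bind Ras and GDP-bound Gα, both rose. RGS12 was at 0.312, 0.323 and 0.246 FPKM with the inhibitor, against 0.00957, 0.00901 and 0.00658 FPKM with DMSO (log2 change 5.00, SE 0.29). RGS14 was at 0.973 ± 0.0482 FPKM, against 0.452 ± 0.159 FPKM (log2 change 1.07, SE 0.27, edgeR adjusted p = 0.00579). With inhibitor replicate 1 alone the RGS14 call was lost (log2 change 1.11, edgeR adjusted p = 0.0673).

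R7 proteins (RGS6, RGS7, RGS9 and RGS11) work in a complex with Gβ5 and are mostly neuronal. None exceeded 0.168 FPKM in any library. RGS6 fell to 0.0576 ± 0.00932 FPKM, against 0.145 ± 0.0310 FPKM with DMSO (log2 change -1.33, SE 0.31, edgeR adjusted p = 0.00379). RGS11 had no DMSO count and 0.0355, 0.0591 and 0.0899 FPKM with the inhibitor, at least 5.55-fold higher. It overlaps FAM234A on the other strand, which was at 4.30 FPKM with the inhibitor and 4.66 FPKM with DMSO. RGS9 measured 0.0774 ± 0.0380 FPKM with the inhibitor and 0.09596 ± 0.0463 FPKM with DMSO and was not called (95% interval of the log2 change -1.44 to 0.84). RGS7, with 0 DMSO counts, and RGS22, a gene known from testis, were not tested.

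**Figure D3:**
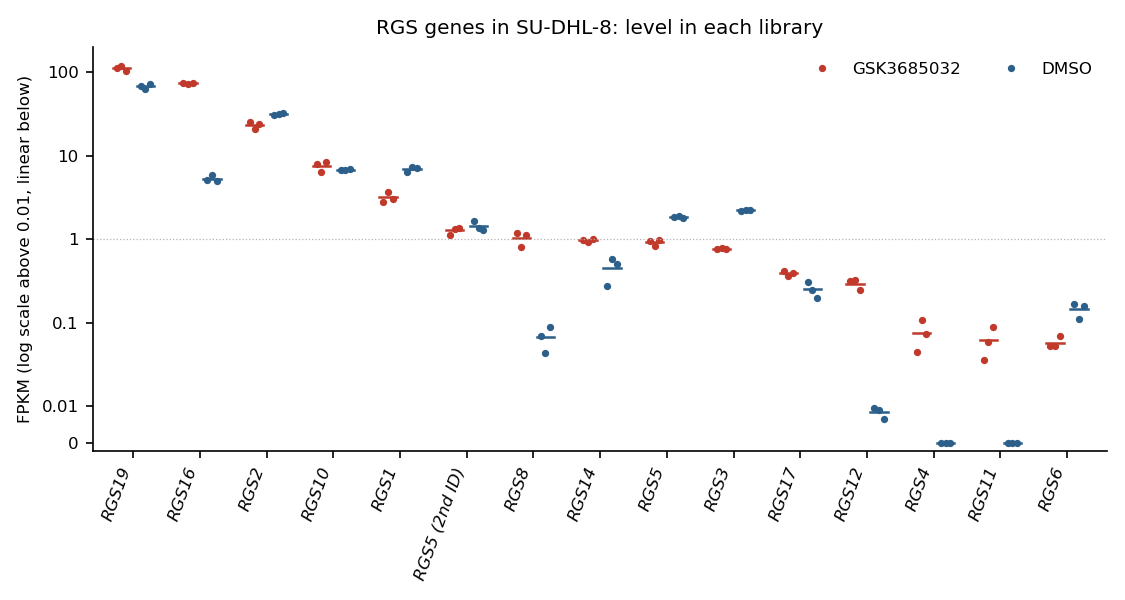
FPKM of 15 RGS entries in each library (points; bars, group means; the axis is logarithmic above 0.01 and linear below it). RGS16 lies at 71.2 FPKM or more in the 3 inhibitor libraries and at 5.90 FPKM or less in the 3 DMSO libraries, while RGS1, RGS2 and RGS3 lie lower with the inhibitor.

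Gα genes were higher in 5 and lower in 4 of 12 tested (41.7% and 33.3%, against 38.1% and 27.3% of all tested genes). In the Gα12 class, whose 2 members act on the cytoskeleton, the genes went in opposite directions. GNA12 (chromosome 7, 2728105 to 2844308) rose to 10.4, 11.04 and 10.6 FPKM in the inhibitor libraries, against 3.63, 3.73 and 4.33 FPKM in the DMSO libraries, a 2.73-fold change without overlap (log2 change 1.45, SE 0.07, edgeR adjusted p = 1.74e-07). GNA13 (chromosome 17, 65009289 to 65056740) was at 16.4, 16.3 and 18.0 FPKM, against 20.8, 22.0 and 19.9 FPKM (log2 change -0.31, SE 0.05, edgeR adjusted p = 0.000571), and its log2 change was -0.14 under upper-quartile scaling (edgeR adjusted p = 0.0435). GNA13 stayed the more abundant gene in every library.

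In the Gαi class, GNAI2, the main Gαi gene of lymphocytes, and GNAZ, whose product hydrolyses GTP slowly, also went in opposite directions. GNAI2 (chromosome 3, 50226292 to 50259354) rose to 24.9, 26.0 and 23.6 FPKM with the inhibitor, against 16.6, 15.6 and 15.8 FPKM with DMSO (log2 change 0.63, SE 0.05, edgeR adjusted p = 3.46e-06). GNAZ (chromosome 22, 23070519 to 23125032) fell to 17.1, 17.0 and 16.9 FPKM, against 30.1, 27.7 and 31.0 FPKM (log2 change -0.81, SE 0.05, edgeR adjusted p = 8.32e-07). GNAZ was therefore the more abundant of these genes in each DMSO library and GNAI2 in each inhibitor library. GNAI3 measured 7.93 ± 0.709 FPKM with the inhibitor and 8.61 ± 0.445 FPKM with DMSO and was not called (95% interval of the log2 change -0.27 to 0.02). Its call depended on inhibitor replicate 2, without which it was lower (log2 change -0.18, edgeR adjusted p = 0.0296). With inhibitor replicate 1 alone it was lower as well (-0.24, edgeR adjusted p = 0.0332), and its sign turned under upper-quartile scaling (0.046).

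The other genes of the Gαi class were near silence. GNAO1, abundant in brain, had 4 DMSO counts, about 1 read pair, and 0.0294, 0.0846 and 0.0518 FPKM with the inhibitor. In read pairs that is a ratio of 43.2 with a 95% counting interval of 7.29 to 1752. GNAI1 had no DMSO count and at most 0.0178 FPKM with the inhibitor, at least 5.06-fold higher. The cone transducin gene GNAT2 had 0.241 ± 0.147 FPKM with the inhibitor and 0.527 ± 0.116 FPKM with DMSO and was not called (edgeR adjusted p = 0.0671). It overlaps AMPD2 on the other strand, which was at 7.81 FPKM with the inhibitor and 4.81 FPKM with DMSO. The rod transducin gene GNAT1 had 0 counts in 4 of the 6 libraries.

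In the Gαq class, 1 gene was nearly silent with DMSO. GNA15 (chromosome 19, 3136033 to 3163749), the blood-cell member of the class, which couples to many receptors, was at 2.08, 2.82 and 2.34 FPKM in the inhibitor libraries, against 0, 0.0333 and 0.0849 FPKM in the DMSO libraries. It was expressed in all 3 inhibitor libraries and near 0 in all 3 DMSO libraries (log2 change 5.81, SE 0.59). Its neighbour GNA11 (3094362 to 3123999), a widely expressed member that ends 12033 bases upstream on the same strand, fell to 4.79, 4.52 and 4.93 FPKM, against 7.46, 6.79 and 7.46 FPKM (log2 change -0.61, SE 0.06, edgeR adjusted p = 1.83e-05). GNAQ had no DMSO count and 0.0263, 0.0717 and 0.0195 FPKM with the inhibitor, and GNA14 at most 0.0456 FPKM. Neither was tested, so GNA11 was the only member of the class above 0.1 FPKM in a DMSO library.

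GNAS (chromosome 20, 58839718 to 58911192), the ubiquitous Gαs gene, was the most abundant Gα gene in all 6 libraries. It measured 55.05, 54.03 and 54.8 FPKM with the inhibitor, against 58.1, 57.2 and 60.1 FPKM with DMSO, a small difference without overlap that passed the test (log2 change -0.10, SE 0.04, edgeR adjusted p = 0.0348). The call was lost in 10 of 16 alternatives, among them without DMSO replicate 1 (edgeR adjusted p = 0.0557) or 3 (0.142) and without inhibitor replicate 2 (0.112) or 3 (0.0813), with log2 changes of -0.12 to -0.09. Upper-quartile scaling turned its sign (0.068). GNAL, the olfactory Gαs gene, measured 0.0963 ± 0.0273 FPKM with the inhibitor and 0.0991 ± 0.0610 FPKM with DMSO and was not called (interval of the log2 change -1.06 to 0.96). It overlaps CHMP1B on the same strand, at 31.7 FPKM with the inhibitor and 27.0 FPKM with DMSO.

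Of the 5 Gβ genes, 4 were lower and none higher, where 27.3% of all tested genes were lower. Of the 4 Gβ genes at a mean of 1 FPKM in a group, 3 were lower, where 39.7% of all tested genes at that level were, and their median log2 change was -0.55. GNB1 (chromosome 1, 1785285 to 1891117) was the most abundant gene among all 57 entries with DMSO. It was at 88.1, 87.5 and 87.0 FPKM with the inhibitor, against 103, 109 and 103 FPKM with DMSO (log2 change -0.27, SE 0.04, edgeR adjusted p = 0.000235). Its log2 change was -0.10 under upper-quartile scaling (edgeR adjusted p = 0.0443) and -0.18 with genes at 1 FPKM or more only (0.00164). GNB4 fell to 6.97, 7.48 and 8.00 FPKM, against 13.5, 13.5 and 12.7 FPKM (log2 change -0.83, SE 0.05, edgeR adjusted p = 7.90e-07). GNB5, the partner of the R7 proteins, fell to 1.33, 1.34 and 1.18 FPKM, against 2.56, 2.53 and 2.70 FPKM (log2 change -1.02, SE 0.08, edgeR adjusted p = 2.53e-06). In all 3 genes every inhibitor library lay below every DMSO library.

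GNB2, the second most abundant Gβ gene, measured 56.7 ± 2.41 FPKM with the inhibitor and 53.2 ± 1.64 FPKM with DMSO and was not called (95% interval of the log2 change -0.03 to 0.20). It was called higher under upper-quartile scaling (0.26, edgeR adjusted p = 0.00101), with genes at 1 FPKM or more only (0.18, edgeR adjusted p = 0.00608) and with inhibitor replicate 1 alone (0.17, edgeR adjusted p = 0.0395). GNB3, known from cone photoreceptors, had 0.265 ± 0.0846 FPKM, against 0.466 ± 0.0859 FPKM (log2 change -0.81, SE 0.30, edgeR adjusted p = 0.0405). This call was lost in 9 of 15 alternatives, among them without DMSO replicate 2 (edgeR adjusted p = 0.0620) or 3 (0.13) and without inhibitor replicate 1 (0.126) or 3 (0.0975), with log2 changes of -0.86 to -0.61. With inhibitor replicate 1 alone the log2 change was -1.30. GNB3 overlaps the cell cycle gene CDCA3 on the other strand, which was at 2.63 FPKM with the inhibitor and 12.5 FPKM with DMSO, and the part of CDCA3 in the GNB3 value was not tested.

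Gγ genes were higher in 5 and lower in 3 of 11 tested (45.5% and 27.3%, against 38.1% and 27.3% of all tested genes). All 5 that were higher had at most 12 counts over the DMSO libraries. GNG7 (chromosome 19, 2511219 to 2702694), a Gγ gene prominent in the striatum of the brain, had 1960, 2047 and 1844 counts in the inhibitor libraries, against 0, 4 and 0 counts in the DMSO libraries. Its level with the inhibitor was 6.96, 7.32 and 6.94 FPKM, and its only DMSO signal amounted to about 1 read pair. The ratio in read pairs was 1708 with a 95% counting interval of 306 to 67525. GNG12 (chromosome 1, 67701475 to 67833467), a Gγ gene common outside the blood lineage, had 1.77, 1.93 and 1.63 FPKM with the inhibitor and no count with DMSO. That is at least 149-fold higher against a floor of 12 counts over the DMSO libraries. The CG-rich windows of both genes are printed above.

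GNG11 (chromosome 7, 93921735 to 93928610), whose product carries a farnesyl group in place of the usual geranylgeranyl group, had 151, 184 and 127 counts with the inhibitor, against 4 in each DMSO library. The ratio in read pairs was 45.2 with a 95% counting interval of 15.1 to 222. Its window holds few CG. GNG4 had 0.159, 0.271 and 0.1298 FPKM with the inhibitor and no DMSO count, at least 17.5-fold higher. The rod photoreceptor gene GNGT1 had 0.209, 0.388 and 0.147 FPKM with the inhibitor and no DMSO count, at least 10.4-fold higher. The deposited span of GNGT1 overlaps TFPI2 on the other strand, which was at 2.39 FPKM with the inhibitor and 0.00819 FPKM with DMSO, and the part of TFPI2 in the GNGT1 value was not tested. GNA15, GNG7 and GNG12 were the members switched on by the criterion of under 0.1 FPKM in every DMSO library and at least 1 FPKM in every inhibitor library, which 1.45% of all 35974 genes met.

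Lower Gγ genes were GNG5, GNG13 and GNGT2. GNG5, widely expressed, fell to 9.35, 9.59 and 9.85 FPKM with the inhibitor, against 14.3, 13.2 and 13.996 FPKM with DMSO (log2 change -0.53, SE 0.05, edgeR adjusted p = 7.40e-06). It overlaps RPF1 on the other strand, which was at 22.5 FPKM with the inhibitor and 37.0 FPKM with DMSO. GNG13, known from taste and retinal cells, fell to 0.752, 0.790 and 1.002 FPKM, against 2.46, 2.38 and 2.59 FPKM (log2 change -1.55, SE 0.23, edgeR adjusted p = 0.000256). It overlaps CHTF18, a replication gene on the other strand, which was at 3.67 FPKM with the inhibitor and 7.62 FPKM with DMSO. The part of either overlapping gene in these values was not tested. The cone gene GNGT2 was at 0.152 ± 0.0140 FPKM, against 0.383 ± 0.0543 FPKM (log2 change -1.25, SE 0.37, edgeR adjusted p = 0.0133), a call lost with inhibitor replicate 1 alone (edgeR adjusted p = 0.0872) and with the replicate number as a block (0.0521).

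3 expressed Gγ genes were not called. GNG10 measured 10.2, 13.3 and 11.99 FPKM with the inhibitor and 12.9, 10.1 and 9.28 FPKM with DMSO (95% interval of the log2 change -0.20 to 0.45). GNG2, a Gγ gene of leukocytes, measured 1.904 ± 0.443 FPKM with the inhibitor and 1.83 ± 0.265 FPKM with DMSO (interval -0.34 to 0.43). The neuronal gene GNG3 measured 1.01 ± 0.238 FPKM with the inhibitor and 0.805 ± 0.213 FPKM with DMSO (interval -0.46 to 1.08), and overlaps BSCL2 on the other strand. The groups of all 3 overlapped. The sign for GNG2 turned without DMSO replicate 1 (-0.0087) or 3 (-0.033) and without inhibitor replicate 3 (-0.13), and those for GNG2 (-0.29) and GNG10 (-0.054) turned with inhibitor replicate 1 alone. GNG10 shares its locus with the readthrough gene DNAJC25-GNG10 (1.80 FPKM with the inhibitor and 1.52 FPKM with DMSO), between which reads may be split.

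**Figure D4:**
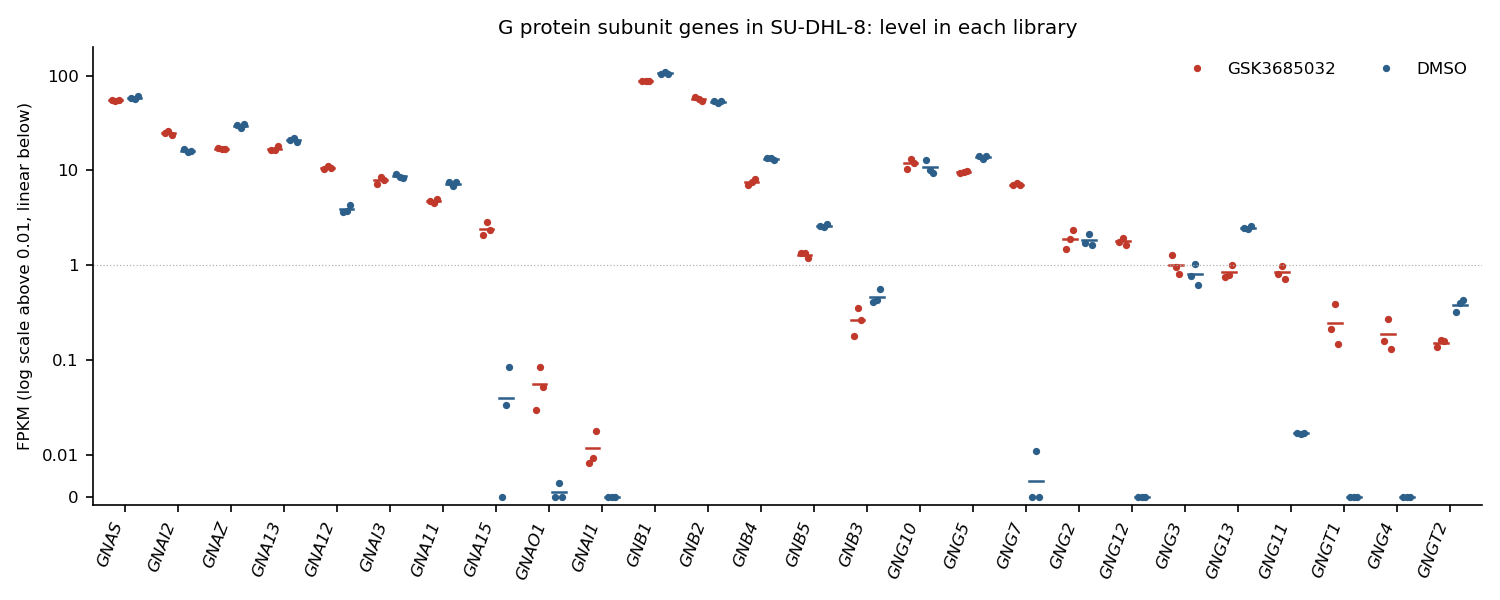
FPKM of 26 G protein subunit genes in each library, Gα first, then Gβ and Gγ (points; bars, group means; the axis is logarithmic above 0.01 and linear below it). GNG7 lies between 6.94 and 7.32 FPKM in the inhibitor libraries and at or near 0 in the DMSO libraries, and GNB4 and GNB5 lie lower with the inhibitor.

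FPKM values are scaled to gene length, so members of a family can be set beside each other. The summed level of the RGS entries was 225 ± 4.47 FPKM with the inhibitor and 126 ± 4.37 FPKM with DMSO (SD, n = 3 each). RGS16 made up 32.6% ± 1.12 of that sum with the inhibitor and 4.24% ± 0.540 with DMSO, while RGS2 made up 10.4% ± 0.929 and 25.2% ± 0.799. RGS19 held close to the same share in both groups, 49.4% ± 2.35 with the inhibitor and 54.3% ± 2.08 with DMSO. The RGS gene outside the rule is not part of these sums, while both RGS5 entries are.

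Among Gγ genes, GNG7 held 19.7% ± 0.848 of the summed FPKM with the inhibitor and 0.0123% ± 0.0214 with DMSO, and GNG5 held 26.8% ± 1.38 and 45.7% ± 2.63. The Gγ sum itself was 35.9 ± 2.21 FPKM with the inhibitor and 30.3 ± 2.09 FPKM with DMSO. Among Gα genes, GNAI2 held 17.8% ± 0.785 with the inhibitor and 11% ± 0.319 with DMSO, and GNAZ held 12.2% ± 0.158 and 20.3% ± 0.778. GNB1 and GNB2 together dominated the Gβ sum in both groups, GNB1 with 57.1% ± 0.571 and 60.2% ± 1.27 and GNB2 with 36.99% ± 0.9751 and 30.4% ± 1.24. These shares are descriptions of transcript levels and carry no test of their own.

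**Figure D5:**
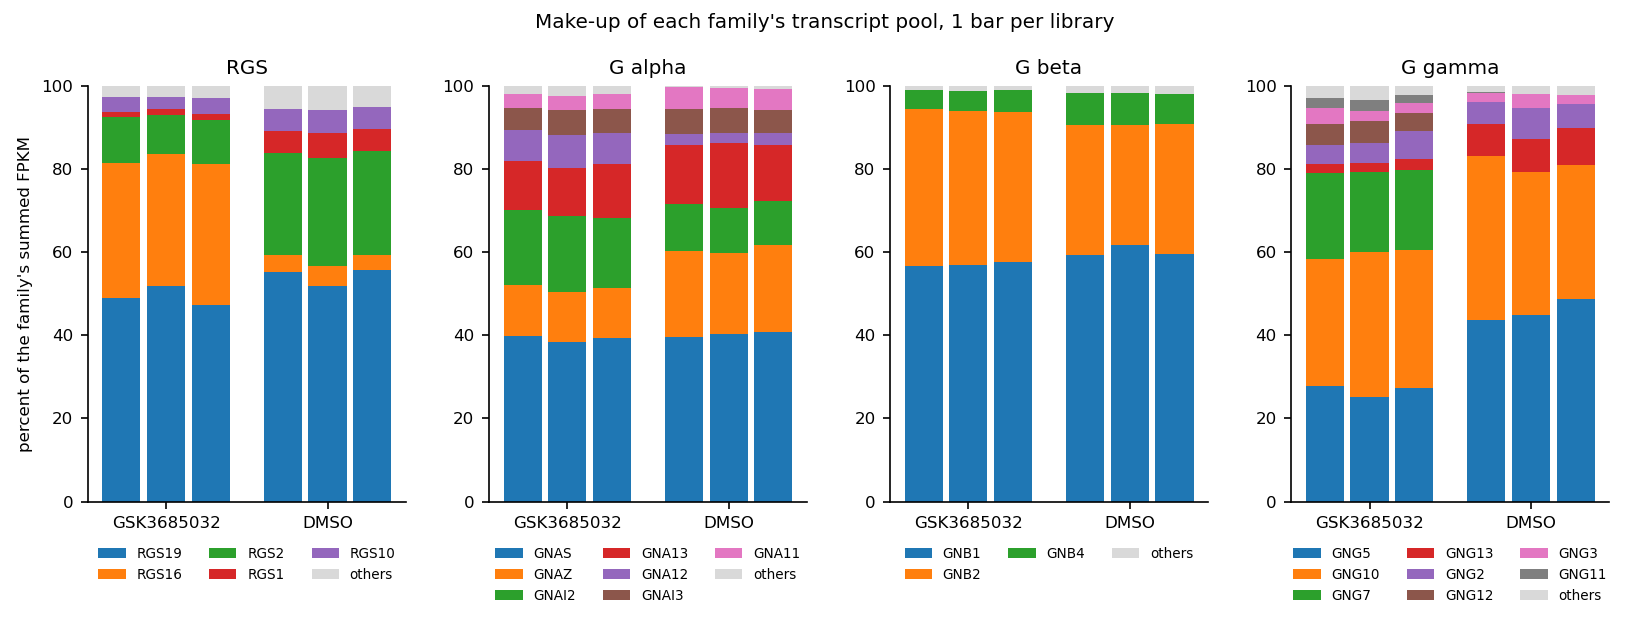
Share of each family's summed FPKM held by its members, 1 bar per library (genes that reach 2% in a library are coloured). RGS16 holds 31.6% to 33.8% of the RGS sum in the inhibitor libraries and 3.77% to 4.83% in the DMSO libraries, and GNG7 holds 19.2% to 20.7% and at most 0.0370% of the Gγ sum.

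Many of these genes lie next to a relative, and neighbours did not always move together. On chromosome 1, RGS16 and RGS8 both rose, while the cluster of RGS18, RGS21, RGS1 and RGS2 (192158462 to 192812275) held 2 genes that were lower and 2 at or near 0. RGS4, from no DMSO count, was higher, and 34.3 kb away 1 of the RGS5 entries was lower. On chromosome 19, GNA15 was higher and GNA11 lower across 12033 bases, with no other gene of the table between them. On chromosome 7, GNGT1 and GNG11, 10.5 kb apart on the same strand, were both higher. The neighbours GNAI3 and GNAT2 on chromosome 1, 2.9 kb apart on opposite strands, were both not called. GNA13 was lower and its neighbour RGS9, 44.1 kb away on chromosome 17, was not called.

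The rest of the pathway was followed in 4 lists of receptors, effectors, regulators of the G protein cycle and genes of the cAMP pathway. Of 45 G protein-coupled receptors of lymphoid cells, 39 were analysed here and 30 were tested, with 14 higher and 9 lower (46.7% and 30%, against 38.1% and 27.3% of all tested genes; median log2 change 0.31). Of the 30, 5 had at most 12 DMSO counts. All 5 are among the higher, and their calls were nearly fixed by the filter. The other higher receptors numbered 9. Of all 20783 tested genes, 2600 had at most 12 DMSO counts, and 5340 of the others were higher. With counts divided by 4, 9 of 24 were higher (6595 of all 16200 genes then tested), and with genes at 1 FPKM or more only, 3 of 13 (4826 of all 12395). By the naming rule, which leaves out genes under 1 FPKM in both group means, the receptors with the largest changes were all lower. Below that level some receptors rose, such as LPAR6 (log2 change 3.59) and S1PR2 (2.77), and some fell, such as P2RY12 (-2.08). P2RY10 and GPR174, both receptors for lysophosphatidylserine, were at 0.528 ± 0.0686 and 0.478 ± 0.0644 FPKM with the inhibitor, against 2.52 ± 0.0975 and 1.33 ± 0.234 FPKM with DMSO. The leukotriene B4 receptor LTB4R was at 6.33 ± 0.306 FPKM, against 10.4 ± 0.253 FPKM, and the proton-sensing receptor GPR65 at 1.16 ± 0.243 FPKM, against 2.13 ± 0.253 FPKM. The edgeR adjusted p of these 4 was at most 0.00222.

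Genes of the Gα13 route were read out by name, chosen for their place beside GNA13 and after their values were seen. Their p-values are therefore no test of the route. Of the 30 receptors tested, 14 were higher, 9 lower and 7 not called. Among the others, P2RY10 was lower (log2 change -2.25) and S1PR4 was not called (0.01). S1PR2 was at 0.887 ± 0.1804 FPKM with the inhibitor, against 0.126 ± 0.0399 FPKM with DMSO (log2 change 2.77, SE 0.30, edgeR adjusted p = 2.91e-05). P2RY8 was at 7.58 ± 0.201 FPKM, against 5.16 ± 0.265 FPKM (log2 change 0.55, SE 0.07, edgeR adjusted p = 5.54e-05). ARHGEF1, an exchange factor that Gα13 activates in lymphocytes, was at 24.9 ± 0.720 FPKM, against 16.4 ± 0.859 FPKM (log2 change 0.60, SE 0.05, edgeR adjusted p = 2.90e-06). Exchange factors of the same family that Gα12 and Gα13 also act on differed less: ARHGEF12 was at 5.01 ± 0.159 FPKM, against 4.23 ± 0.147 FPKM (log2 change 0.24, SE 0.04, edgeR adjusted p = 0.001002), and ARHGEF11 at 2.69 ± 0.0661 FPKM, against 2.41 ± 0.190 FPKM, was not called (edgeR adjusted p = 0.108).

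Effectors were higher in 13 and lower in 2 of 18 tested (72.2% and 11.1%, against 38.1% and 27.3% of all tested genes; median log2 change 1.38). Of the 18, 5 had at most 12 DMSO counts. All 5 are among the higher, and their calls were nearly fixed by the filter. The share of 72.2% and the median include them. The other higher effectors numbered 8, among them PLCB1 with 30 DMSO counts. Of all 20783 tested genes, 2600 had at most 12 DMSO counts, and 5340 of the others were higher. ADCY3, an adenylyl cyclase, fell to 6.65 ± 0.549 FPKM with the inhibitor, against 20.02 ± 0.362 FPKM with DMSO. PLCB3, a target of Gαq and βγ, rose to 1.80 ± 0.118 FPKM, against 0.414 ± 0.0641 FPKM. PREX1, a Rac exchange factor that βγ activates, rose to 2.50 ± 0.146 FPKM, against 0.694 ± 0.163 FPKM, and PIK3CG, the PI3-kinase that βγ activates, to 7.48 ± 0.534 FPKM, against 4.59 ± 0.359 FPKM. The edgeR adjusted p of these 4 was at most 1.38e-05. With genes at 1 FPKM or more only, 7 of 9 effectors were higher, and 4826 of all 12395 genes.

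Regulators of the cycle were higher in 6 and lower in 6 of 19 tested (31.6% each, against 38.1% and 27.3% of all tested genes; median log2 change -0.10). GPSM1, which binds GDP-bound Gαi, was at 5.56 ± 0.549 FPKM with the inhibitor, against 0.0220 ± 0.0205 FPKM with DMSO (log2 change 7.81, SE 0.39). It had 27 counts over the DMSO libraries and passed the filter on low counts only through its inhibitor libraries, so no p is given. Its relative GPSM2 fell to 0.510 ± 0.139 FPKM, against 1.36 ± 0.1003 FPKM. The phosducin-like gene PDCL3 rose to 6.43 ± 0.321 FPKM, against 3.87 ± 0.496 FPKM, and the arrestin gene ARRB2 fell to 8.58 ± 0.665 FPKM, against 11.8 ± 0.670 FPKM. Genes of the cAMP pathway were higher in 10 and lower in 7 of 22 tested (45.5% and 31.8%, against 38.1% and 27.3% of all tested genes; median log2 change 0.35). Of the 10, 1 had at most 12 DMSO counts, so its call was nearly fixed by the filter. The phosphodiesterase PDE4A rose to 1.07 ± 0.0675 FPKM, against 0.122 ± 0.0193 FPKM, and the cAMP-regulated exchange factor RAPGEF3 to 2.85 ± 0.234 FPKM, against 1.502 ± 0.138 FPKM. The kinase subunit PRKACB fell to 4.59 ± 0.299 FPKM, against 7.75 ± 1.005 FPKM, and the transcription factor ATF1 to 13.5 ± 0.698 FPKM, against 21.8 ± 0.332 FPKM. The edgeR adjusted p of the genes named here other than GPSM1 was at most 0.00135.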

How the data were processed

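Libraries of poly(A) RNA had dUTP-marked second strands and were sequenced at both ends, per the labels' protocols. The submitters' processing notes list StringTie 2.1.6, HISAT2 2.2.1, cutadapt 1.9, edgeR and DESeq2 without roles, and a mouse build, mm10, although the gene IDs are human: all 57 member IDs are in GENCODE release 29 and overlap their GRCh38 position, so coordinates are read as GRCh38. The deposited values, per the file headers, are an estimated count and an FPKM for every gene in every library. A count of 4 is more frequent than 3 or 5 (1319.8, 725.8 and 474.5 genes per library), so 4 counts were read as about 1 read pair.

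From the counts, edgeR 4.0.16 (R 4.3.3) was fitted to all 6 libraries with filterByExpr, TMM and the quasi-likelihood test, with Benjamini-Hochberg adjustment over 20783 genes, two-sided. Standard errors are the log2 change divided by the square root of F. Where DMSO counts were all 0, folds are lower bounds against 12 counts over the group. With 1 to 12 DMSO counts, ratios of read pairs carry exact binomial intervals. Both cover counting error only. Every member with a mean of 1 FPKM in a group was named with values, as were called members and, per pathway list, the 4 called genes with the largest change in log2(FPKM + 0.5) whose groups did not overlap and which reached 1 FPKM in a group. Members and lists were chosen with earlier results of these data known. Pairs of libraries within a group differed by 3.3 to 6.81 times the variance of sampling. DESeq2 1.42.0 and limma 3.58.1 on log2 FPKM were among the alternatives.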

Additional observations from a re-analysis of the deposited data

How the results depend on the processing

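Of 41 member results, 30 kept their direction and their side of the threshold under every one of 16 alternatives that could test them. Among them are GNA15, GNAI1, GNG4, GNG7, GNG11, GNG12, GNGT1, RGS4, RGS11 and RGS12. Their calls as higher were nearly fixed by the filter, so that they were kept says little. GNAI1, RGS4 and RGS11 had a value under 10 alternatives only. The other 11 of the 41 were GNAI3, GNAO1, GNAS, GNB2, GNB3, GNG2, GNG10, GNGT2, RGS6, RGS14 and RGS17. Those not given above are GNAO1, which lost its call with inhibitor replicate 1 alone (log2 change 4.56), and RGS6, which lost it by limma with a pseudocount of 1 (limma adjusted p = 0.0596). The cause was not tested. Signs turned for GNAI3 (0.046) and GNAS (0.068) under upper-quartile scaling, which moves the median of all genes by 0.17, and with inhibitor replicate 1 alone for GNG2 (-0.29) and GNG10 (-0.054). GNG2 ranged between -0.13 and 0.18 when 1 library was left out. The number of higher RGS genes, 8, was 2 of 8 with genes at 1 FPKM or more only, and 5 of 14 by limma with each of 3 pseudocounts. In genes at 1 FPKM or more, which are fewer, 6 subunit genes, 7 effectors, 3 receptors and 4826 of all genes were higher. With counts divided by 4, 9 receptors were higher. With the replicate number as a block, 8 RGS and 10 subunit genes were higher, and 5 and 8 lower. The shares of all genes by limma and with the block are not given here, so these counts have no background beside them. GNAS (adjusted p = 0.0643), GNB3 (0.0587) and GNGT2 (0.0521) were then not called. Same-numbered libraries hardly deviated together (correlations 0.00049, 0.0211 and 0.00268). The highest value of any pairing was that of the replicates numbered 2 (0.0211), while inhibitor replicate 1 correlated best with DMSO replicate 3 (0.0169). Values so near 0 cannot show whether same-numbered libraries shared a batch. Members with few counts, such as RGS4, RGS11 and GNAI1, rest on few read pairs.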
